A study of Mus musculus with 6 samples.

Results

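The mitochondrial ribosomal protein genes were followed here from mouse embryonic stem cells (mESCs) to cardiac precursor cell cultures (CPCCs) in bulk RNA-seq. The genes were chosen by name alone, as every gene of the deposited count tables whose symbol starts with *Mrpl* (large subunit) or *Mrps* (small subunit) and goes on with a digit. This gave 78 of the 16279 genes in the tables. All 78 are listed for both cell types and all 78 were tested, with a lowest count of 44 in any library.

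The mESCs were male F1 cells from a C57BL/6J mother and a CAST/EiJ father, 3 single-cell derived clones from 3 blastocysts, grown without feeders on gelatin in 2i medium with LIF, which holds them in a naive pluripotent state. The CPCCs were derived from those clones, so both groups carry the same F1 genotype: the cells were aggregated in hanging drops, kept as embryoid bodies with ascorbic acid, dissociated, and expanded in medium with EGF and Fgf2 up to the fourth passage. The CPCCs are heterogeneous cultures and not a sorted cell type. Each group has 3 libraries, named as in their columns (mESCs are S01 to S03 and CPCCs S04 to S06), and the columns do not say which CPCC library came from which clone.

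Mitochondrial ribosomes translate the small set of proteins that the mitochondrial genome encodes, all of them core subunits of the respiratory chain and the ATP synthase. Their rRNAs are made in the mitochondrion, but every mitoribosomal protein is encoded in the nucleus, made in the cytosol and imported. Many of these proteins descend from bacterial ribosomal proteins, and others were added later and are found only in mitochondria. Heart muscle depends on oxidative phosphorylation, and inherited defects of several mitoribosomal proteins cause infantile cardiomyopathy in humans.

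The mESC libraries held 6442639 to 6907330 counts and the CPCC libraries 8468819 to 11436062. Levels are given in CPM, counts on a scale of 1000000 per library after TMM normalization over the genes of both tables, with a mean ± SD over 3 libraries, and sums over marker lists in raw CPM, the same scale before TMM. All 8 markers of mESCs fell, among them *Nanog* and *Pou5f1*, from a summed level of 5250 to 5595 raw CPM to 107.5 to 295. Of 10 mesenchymal markers, 5 were tested and rose and 5 are listed for CPCCs only, and their sum went from 100.6 to 135.8 to between 15830 and 23000 raw CPM. Of 10 cardiac precursor markers, 4 were tested and 1 of them, *Tnnt2*, rose, 5 are listed for CPCCs only and 1 for mESCs only, and their sum was 10.71 to 17.37 raw CPM in mESCs and 47.17 to 147.7 in CPCCs. Of 8 neural markers 6 were tested and rose and 2 are listed for CPCCs only, and of 8 endoderm markers 2 rose, 1 fell, 1 did not pass, and neither table lists *Afp*, *Ttr* or *Apoa1*, and 1 more was removed by the filter on low counts. The part of these other cell types in the results below was not tested. Library S04 stood farthest from the other libraries of its group, at distances of 0.7631 and 0.8798 (root mean square difference in log2 CPM over the tested genes), against 0.5251 between S05 and S06.

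The mitochondrial ribosomal protein genes were lower in CPCCs almost throughout. Of 78 genes, 59 changed (75.6%), of which 58 fell (74.4% of the 78) and 1 rose (1.28%), by edgeR's quasi-likelihood test at a Benjamini-Hochberg adjusted p under 0.05, while over all 12471 genes tested 61.4% changed, 29.7% fell and 31.7% rose. The other 19 did not pass, 16 with a negative and 3 with a positive log2 fold change. DESeq2 gave the same call for all 78. In 62 genes every CPCC library was below every mESC library (79.5%, against 34.5% of all genes), in 3 every CPCC library was above (3.85%, against 35.3%), and in 13 the groups overlapped. A fall of at least 2-fold was called for 27 genes (34.6%, against 19.5% of all genes), and no gene rose that far, where 25.5% of all genes did.

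The changes were mostly moderate and spread less than those of all genes. Over the 78 genes the log2 fold change, taken as CPCC over mESC, had a median of -0.81 and quartiles of -1.21 and -0.51, a median fall of 1.75-fold, beside a median of 0.03 and quartiles of -0.84 and 1.14 over all genes tested. The summed level of the 78 genes was 10279, 10508 and 9272 CPM in S01 to S03 and 4629, 5415 and 5371 CPM in S04 to S06. The mESC sum was 1.95-fold the CPCC sum (10019 ± 658 against 5138 ± 442 CPM, SD, n = 3), and the groups did not overlap. In bulk samples, fewer cells of a type that express these genes and less of their RNA per cell cannot be told apart.

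**Figure D1:**
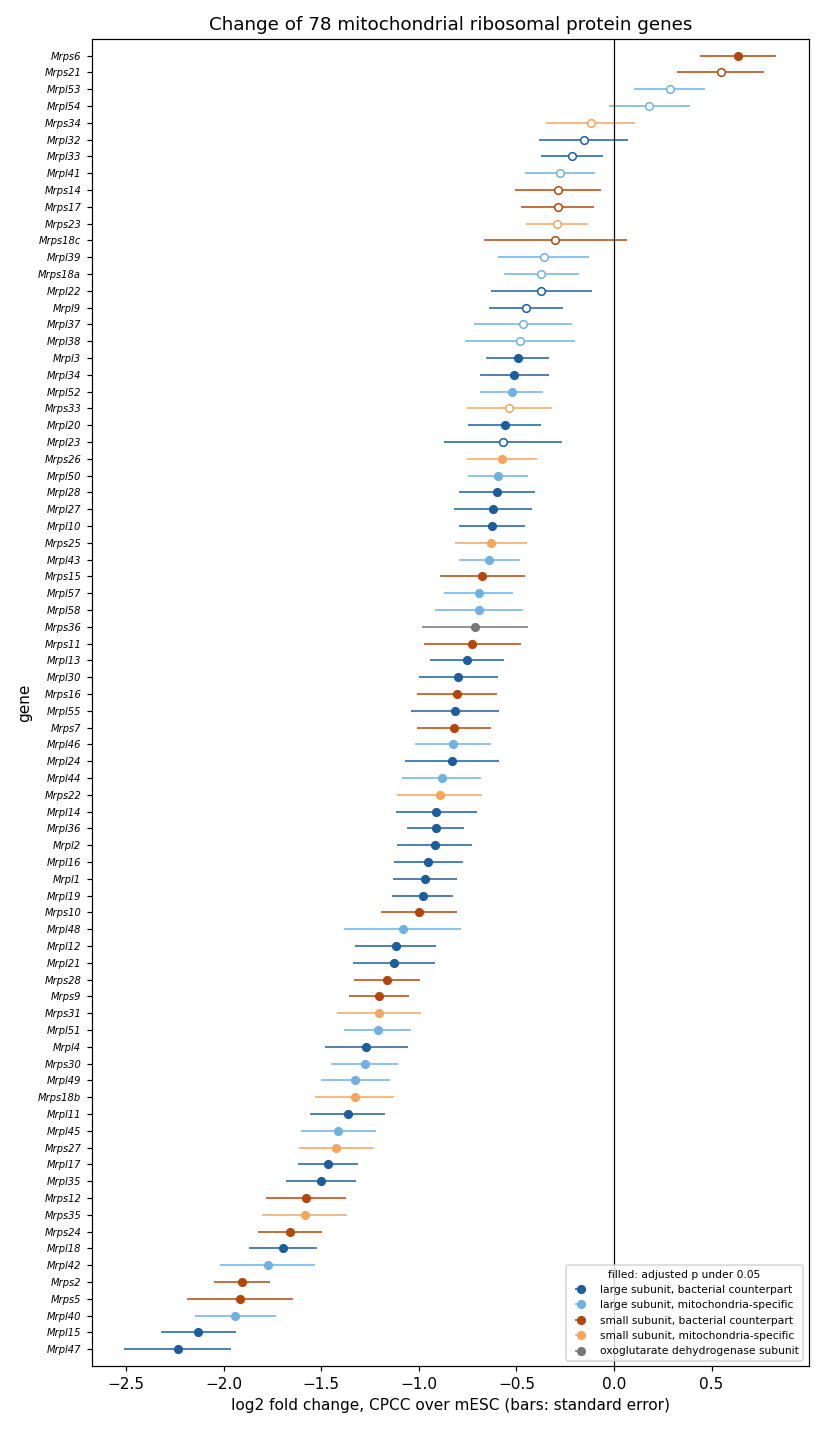
Log2 fold change of each of the 78 genes, CPCC over mESC, with its standard error (bars), ordered by size and coloured by subunit and by whether the protein has a bacterial counterpart. Filled points passed the adjusted p of 0.05: 58 lie to the left of 0 and 1, *Mrps6*, to the right.

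Leaving out single libraries changed some calls but not the direction of the set. The count of falls lay between 46 and 60 without 1 library. S04 had the lowest level among the CPCC libraries in 55 genes (70.5%, against 43.1% of all genes), and S03 the lowest among the mESC libraries in 57 (73.1%, against 38.6% of all genes). Without S04 the median log2 fold change was -0.696. Leaving out each of the 6 libraries in turn, 44 genes were called lower in every fit (56.4%, against 22.4% of all genes). A list of 15 cell cycle genes moved the same way, with 13 lower (29.7% of all genes were) and a median of -1.65. Its sum went from 6809, 7110 and 7121 raw CPM in mESCs to 902.7 in S04, 2122 in S05 and 2927 in S06. S04 was thus lowest for both the cell cycle genes and the sum of the mitochondrial ribosomal protein genes. The part of cell division, or of the library, in the fall was not tested.

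The largest falls included proteins of the polypeptide exit, the core of the large subunit and the mRNA channel of the small one. *Mrpl47* (chromosome 3, 32727497 to 32736756 on GRCm38), whose protein sits at the rim of the exit tunnel, had 54.4, 51.3 and 50.8 CPM in the mESC libraries and 8.05, 9.58 and 15.6 CPM in the CPCC libraries. It was 4.71-fold lower in CPCCs, a log2 fold change of -2.24 (edgeR standard error 0.27, adjusted p = 0.00014). *Mrpl15* (chromosome 1, 4773200 to 4785727), a counterpart of a bacterial protein that holds the large subunit's rRNA together, was at 277, 285 and 269 CPM in the mESC libraries against 49.9, 63.7 and 76.2 CPM in the CPCC libraries. It was 4.38-fold lower, a log2 fold change of -2.13 (edgeR standard error 0.19, adjusted p = 2.43e-05). In both genes the highest CPCC library, S06, lay far below the lowest mESC library.

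*Mrpl40* (chromosome 16, 18872018 to 18876638), a mitochondria-specific protein of the central protuberance, the crown of the large subunit, was at 374, 408 and 367 CPM against 71.9, 110.2 and 117 CPM. It was 3.84-fold lower (log2 fold change -1.94, standard error 0.21, edgeR adjusted p = 6.47e-05). *Mrps2* (chromosome 2, 28468066 to 28471178), a small subunit protein whose inherited defects in humans cause a multisystem mitochondrial disease, was at 376, 361 and 353 CPM against 94.9, 95.2 and 100.2 CPM. It was 3.75-fold lower (log2 fold change -1.91, standard error 0.14, edgeR adjusted p = 1.02e-05), and its lowest mESC library was 3.52-fold its highest CPCC library. Relative to their mean, the CPCC libraries differed less in *Mrps2* than in any of the other 7 largest falls, and S04 did not stand apart there.

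*Mrps5* (chromosome 2, 127587426 to 127603987), a counterpart of a bacterial protein involved in decoding accuracy, was at 41.55, 40.6 and 29.5 CPM in the mESC libraries against 10.3, 7.155 and 12.0 CPM in the CPCC libraries. It was 3.77-fold lower (log2 fold change -1.92, standard error 0.27, edgeR adjusted p = 0.000317). *Mrpl42*, *Mrpl18* and *Mrps24* completed the 8 largest falls. *Mrpl42*, a mitochondria-specific protein of the large subunit, went from 167 ± 13.9 to 48.7 ± 15.2 CPM (SD, n = 3), a log2 fold change of -1.78. *Mrpl18*, which belongs to the central protuberance, went from 336 ± 13.9 to 104 ± 18.1 CPM (SD, n = 3; log2 fold change -1.70). *Mrps24*, at the entry of the mRNA channel, went from 215 ± 18.8 to 68.0 ± 6.84 CPM (SD, n = 3; log2 fold change -1.66). None of these 8 genes had overlapping groups, and all 8 fell.

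**Figure D2:**
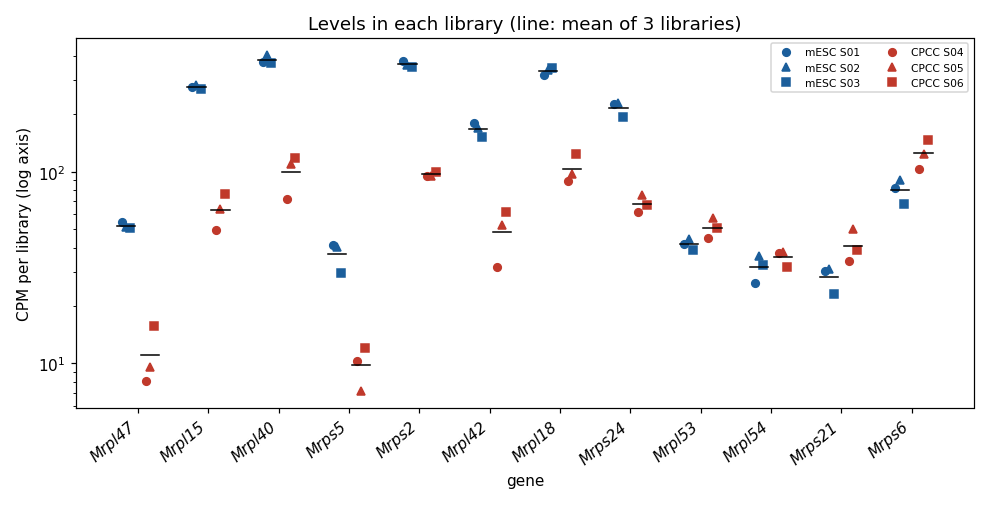
CPM (log axis) of each library, with the group mean as a line, for the 8 genes that fell the furthest and the 4 genes with a positive log2 fold change. In the 8 genes at the left the CPCC points lie well below the mESC points, and in *Mrps6* and *Mrps21* at the right they lie above by less than 2-fold.

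*Mrps6* was the only one of the 78 called higher. Its protein is the counterpart of a bacterial protein of the platform of the small subunit. *Mrps6* (chromosome 16, 92058336 to 92112228) was at 82.3, 90.9 and 67.7 CPM in the mESC libraries against 104, 124 and 147 CPM in the CPCC libraries. It was 1.55-fold higher without overlap (log2 fold change 0.64, standard error 0.19, edgeR adjusted p = 0.018). The call was lost without S01 (adjusted p = 0.0571), without S03 (0.0647) and without S06 (0.0582). *Slc5a3*, a myo-inositol transporter gene, overlaps *Mrps6* over 29152 bases on the same strand. *Slc5a3* rose from 5.73, 9.14 and 12.4 CPM to 127.6, 63.4 and 88.1 CPM (edgeR log2 fold change 3.35), and the share of its reads in the *Mrps6* count was not tested. S04 was the highest CPCC library for *Slc5a3* and the lowest for *Mrps6*.

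*Mrps21*, a small protein of the same platform, was at 30.3, 31.2 and 23.1 CPM in the mESC libraries against 34.4, 49.96 and 39.2 CPM in the CPCC libraries. Its groups did not overlap, but its edgeR adjusted p was 0.060 (log2 fold change 0.55), and 0.016 without S04. The genes with the smallest changes came from both subunits. *Mrps34*, a mitochondria-specific protein of the small subunit, was at 32.6 ± 5.08 and 29.99 ± 5.91 CPM (SD, n = 3; log2 fold change -0.12). *Mrpl32*, which must be cut by the m-AAA protease before it joins the ribosome, was at 64.2 ± 13.8 and 57.6 ± 12.7 CPM (SD, n = 3; log2 fold change -0.16), and its sign turned without S03. *Mrpl33*, the shortest of all the proteins, was at 168 ± 21.9 and 144 ± 2.00 CPM (SD, n = 3; log2 fold change -0.22). These 3 genes had overlapping groups and none passed the test.

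The median fall was close in both subunits. The counts below stand beside 29.7% of all genes tested that fell and 31.7% that rose. Of 51 large subunit genes 39 fell and none rose, with a median log2 fold change of -0.82, and of 26 small subunit genes 18 fell and 1 rose, with a median of -0.81. Of 46 genes with a bacterial counterpart 36 fell (median -0.83), and of 31 mitochondria-specific genes 21 fell (median -0.69). By position in the large subunit, the 5 genes of the peptidyl transferase region all fell (median -0.92), as did 6 of 7 in the central protuberance (median -0.82) and 5 of 8 at the polypeptide exit (median -0.86). These counts are descriptions, and differences between the classes were not tested.

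Of the 5 genes of the stalk, where translation factors dock, 3 fell and 2 did not pass. *Mrpl11*, at the stalk base, was at 196, 182 and 161 CPM in the mESC libraries against 54.4, 77.5 and 77.2 CPM in the CPCC libraries, and fell by 1.37 on the log2 scale (standard error 0.19, edgeR adjusted p = 0.000309). *Mrpl12*, which forms the mobile tip, fell by 1.12 (92.1 ± 14.6 to 42.4 ± 7.69 CPM, SD, n = 3), and *Mrpl10*, its anchor, fell by 0.63 (209 ± 15.4 to 135 ± 20.4 CPM). The mitochondria-specific *Mrpl53* was at 41.7, 44.7 and 39.2 CPM against 44.9, 57.6 and 50.5 CPM, with a log2 fold change of 0.28 that did not pass the test (edgeR adjusted p = 0.198). *Mrpl54* was at 26.1, 36.3 and 32.6 CPM against 37.7, 38.2 and 32.0 CPM, with a log2 fold change of 0.18 and overlapping groups (edgeR adjusted p = 0.467). The 3 genes with a bacterial counterpart fell, and the 2 genes without one gave positive values that did not pass. The difference between them was not tested, and over all members the 2 classes had medians of -0.83 and -0.69.

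The 3 *Mrps18* paralogs descend from 1 bacterial protein and occupy different sites. In the classes used here *Mrps18a* and *Mrps18b* are nevertheless counted as mitochondria-specific, and only *Mrps18c* as having a bacterial counterpart. *Mrps18b*, of the small subunit, was at 339, 379 and 255 CPM in the mESC libraries against 106, 137 and 144 CPM in the CPCC libraries, and fell by 1.33 on the log2 scale (standard error 0.20, edgeR adjusted p = 0.00047). *Mrps18a*, which is built into the large subunit in spite of its name, was at 72.5, 82.7 and 63.9 CPM against 46.1, 60.8 and 62.5 CPM (log2 fold change -0.37, edgeR adjusted p = 0.122). *Mrps18c*, the true counterpart in the bacterial site, had the lowest CPM of the 3 in both groups, not corrected for length. It was at 8.46 ± 0.977 and 6.88 ± 2.19 CPM (SD, n = 3; log2 fold change -0.30, edgeR adjusted p = 0.496). Only *Mrps18b* passed the test, and the differences between the paralogs were not tested.

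Of the 4 genes whose human counterparts are mutated in mitochondrial cardiomyopathy, 3 fell, where 29.7% of all genes tested did. *Mrpl44*, at the polypeptide exit, was at 78.45, 80.3 and 74.7 CPM in the mESC libraries against 41.8, 32.7 and 51.9 CPM in the CPCC libraries (log2 fold change -0.88, standard error 0.20, edgeR adjusted p = 0.00453). *Mrps22*, a mitochondria-specific protein of the small subunit, was at 36.6, 33.5 and 28.96 CPM against 15.9, 20.6 and 16.8 CPM (log2 fold change -0.89, standard error 0.22, edgeR adjusted p = 0.0063). *Mrpl3*, near the catalytic centre, was at 138, 137 and 125.2 CPM against 82.8, 102.8 and 99.0 CPM (log2 fold change -0.49, edgeR adjusted p = 0.0247). The call for *Mrpl3* was lost without S01 (adjusted p = 0.089) and without S02 (0.086). *Mrps14*, a counterpart of a bacterial protein of the head of the small subunit, was at 91.5, 67.1 and 92.3 CPM against 87.2, 57.1 and 61.2 CPM with overlapping groups (log2 fold change -0.29, edgeR adjusted p = 0.286). S04 was the high CPCC library for *Mrps14*, and without it the log2 fold change was -0.48 (adjusted p = 0.040).

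*Mrps36* carries the name of the family but is known as a subunit of the oxoglutarate dehydrogenase complex of the citric acid cycle. It was at 30.1, 27.1 and 39.3 CPM in the mESC libraries against 25.5, 14.6 and 18.7 CPM in the CPCC libraries, without overlap (log2 fold change -0.71, standard error 0.27). Its edgeR adjusted p of 0.0442 was the largest among the called genes, and the call was lost on leaving out any library but S04 (adjusted p 0.0568 to 0.153).

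Levels differed between the genes far more than between the cell types. The proteins are short, from 65 to 442 residues, with a median coding length of 582 bases against 1383 over all tested genes with a coding length, so levels between genes were compared per kb of coding length. On that scale the median level was 160 CPM per kb in mESCs and 99.3 in CPCCs, and the highest gene stood 78.8-fold above the lowest in mESCs and 97.5-fold in CPCCs. In mESCs the highest were *Mrpl17* (1444 CPM per kb), *Mrpl33* (860) and *Mrpl36* (767), and the lowest were *Mrpl48* (18.3), *Mrps18c* (19.7) and *Mrpl23* (23.4). *Mrpl17* and *Mrpl36* fell, by 1.47 and 0.91 on the log2 scale, so that *Mrpl33* led in CPCCs with 741 CPM per kb of coding length. The order depends on leaving untranslated bases out, while reads cover whole transcripts. Per kb of all annotated exons, a length chosen after seeing the data, *Mrpl18* (240 CPM per kb), *Mrpl40* (218) and *Mrpl36* (202) led in mESCs, *Mrpl17* (100.3) was 18 in order and *Mrpl33* (22.9) 52, and *Mrpl48* was again the lowest. On that scale the highest gene stood 169-fold above the lowest in mESCs. *Mrpl17*, a counterpart of a bacterial protein near the exit tunnel, was at 776, 798 and 714 CPM in the mESC libraries against 239, 308 and 280.0 CPM in the CPCC libraries. *Mrpl48*, of the central protuberance, fell by 1.08, from 11.6 ± 0.396 to 5.47 ± 0.635 CPM (SD, n = 3), and *Mrpl23*, of the polypeptide exit, at 10.2 ± 0.511 and 6.91 ± 1.03 CPM (SD, n = 3), did not pass the test (edgeR adjusted p = 0.13).

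The order of the genes was largely kept, with a Spearman correlation of 0.90 between the levels per kb of coding length (0.92 per kb of exons) in the 2 cell types over the 78 genes. Longer coding sequences went with larger falls over the 78 genes (Spearman correlation -0.38 between coding length and log2 fold change), while over 11910 tested genes with a coding length it was 0.07. Both are descriptions across genes measured in the same 6 libraries, and genes are not independent replicates.

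**Figure D3:**
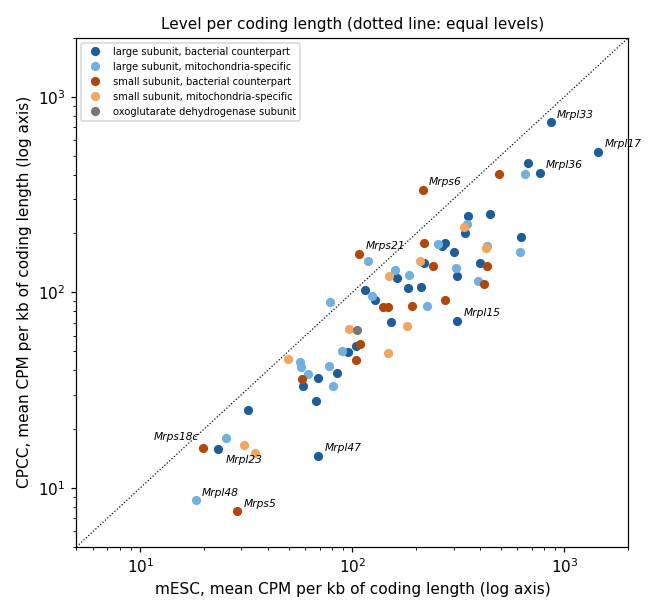
Mean CPM per kb of coding length in mESCs (x, log axis) and CPCCs (y, log axis) for the 78 genes, coloured by subunit and bacterial counterpart, with the dotted line at equal levels. Most points lie below the line at every level, *Mrps6*, *Mrps21*, *Mrpl53* and *Mrpl54* lie above it, and *Mrpl47* and *Mrpl15* lie the furthest below.

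Promoters of mitochondrial genes are known for binding sites of the ETS factor GABP, of NRF1 and of YY1. The letters of these and other common motifs were counted on both strands of RefSeq promoters (GRCm38.p6), from 250 bases before to 50 after the start, for the 69 of 78 genes and the 9742 of 12471 tested genes with an entry. The YY1 letters AAGATGGC were in 12 of 69 promoters (17.4%, against 4.91% of all promoters), the ETS letters CCGGAAG in 25 (36.2%, against 18.9%) and the NRF1 motif in 13 (18.8%, against 11%). The SP1 letters GGGCGG were in 34 (49.3%, against 67.1%), the CCAAT letters in 27 (39.1%, against 39.6%), the E-box CACGTG in 5 (7.25%, against 10.4%) and TATAAA in 4 (5.8%, against 6.39%). None of these motifs holds another, though matches of 2 motifs can overlap by some letters. A match of letters is a description and not a bound site.

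In 8 of the 12 genes with the YY1 letters the match ran in the direction of the gene and began after the start of transcription, and in 6 of them the ATG inside the motif was an annotated start codon in GENCODE M21 (50% of the genes with the letters, against 32.2% of such genes overall). To show this, 30 bases around the match, with the motif in capitals, are given for 3 genes with the match at the start codon and for *Mrpl42*, where the match also lies after the start of transcription but the ATG is not an annotated start codon.
Mrpl35 (chr6:71823743-71823772, minus strand): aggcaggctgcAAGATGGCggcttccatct
Mrps27 (chr13:99344789-99344818, plus strand): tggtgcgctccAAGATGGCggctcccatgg
Mrps24 (chr11:5707652-5707681, minus strand): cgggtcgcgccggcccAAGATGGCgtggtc
Mrpl42 (chr10:95501904-95501933, minus strand): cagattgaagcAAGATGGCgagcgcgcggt

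All 4 of these genes fell, with log2 fold changes of -1.50 for *Mrpl35*, -1.42 for *Mrps27*, -1.66 for *Mrps24* and -1.78 for *Mrpl42*. They were chosen after their values were seen. The other genes with the match at the start codon had -1.33 (*Mrpl49*), -0.82 (*Mrps7*) and -0.37 (*Mrps18a*, not called). *Mrpl37*, with a match placed as in *Mrpl42*, had -0.46 and was not called. The 12 genes with the YY1 letters had a median log2 fold change of -1.12, with 9 lower, and the 57 without had a median of -0.71, with 43 lower. For the ETS letters the medians were -0.62 with and -0.86 without, and for the NRF1 letters -0.80 and -0.81. The difference by motif was not tested. *Yy1* itself was at 103 ± 12.5 CPM in mESCs and 97.0 ± 47.2 CPM in CPCCs (SD, n = 3; log2 fold change -0.09, edgeR adjusted p = 0.819).

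Up to 150 bases upstream of the start, outside any annotated exon, are shown for the gene with the highest level per kb of coding length in mESCs, for a gene with 2 NRF1 matches, for a cardiomyopathy gene with an ETS match just before the start, for the fall with the smallest spread and for the gene that rose. Capitals mark matches to the 7 motifs on either strand.
Mrpl17 (chr7:105811100-105811249, minus strand): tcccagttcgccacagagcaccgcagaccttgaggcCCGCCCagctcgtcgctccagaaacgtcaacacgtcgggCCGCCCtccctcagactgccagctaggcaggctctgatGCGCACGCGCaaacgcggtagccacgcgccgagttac
Mrpl45 (chr11:97315566-97315715, plus strand): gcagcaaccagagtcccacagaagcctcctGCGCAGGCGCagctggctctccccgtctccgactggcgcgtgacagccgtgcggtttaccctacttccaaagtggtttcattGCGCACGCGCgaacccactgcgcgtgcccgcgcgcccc
Mrps22 (chr9:98601680-98601829, minus strand): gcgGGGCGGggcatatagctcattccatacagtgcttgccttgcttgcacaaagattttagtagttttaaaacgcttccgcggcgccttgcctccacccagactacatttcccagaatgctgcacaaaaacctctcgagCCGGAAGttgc
Mrps2 (chr2:28467916-28468065, plus strand): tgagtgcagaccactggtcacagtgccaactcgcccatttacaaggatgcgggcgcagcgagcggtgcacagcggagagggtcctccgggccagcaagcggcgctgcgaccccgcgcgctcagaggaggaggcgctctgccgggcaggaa
Mrps6 (chr16:92058120-92058269, plus strand): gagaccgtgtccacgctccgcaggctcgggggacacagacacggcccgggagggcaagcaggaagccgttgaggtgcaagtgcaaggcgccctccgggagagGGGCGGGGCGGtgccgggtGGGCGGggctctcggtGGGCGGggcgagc

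The stretch of *Mrpl17* held NRF1 and SP1 matches and that of *Mrps22* ETS and SP1 matches, and both genes fell. *Mrps2*, which fell by 1.91 on the log2 scale, held none of the 7 motifs in its whole promoter window, and *Mrps6*, which rose, held only SP1 letters. None of the 5 stretches holds TATAAA. *Mrpl45*, whose protein tethers the ribosome at the inner membrane, held 2 NRF1 matches and fell by 1.41, from 212, 235 and 174 CPM to 63.6, 86.1 and 83.4 CPM.

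Many of these genes share their start region with a neighbour. A protein-coding gene on the other strand starts within 1000 bases of 33 of the 78, a share not counted over all genes. *Mrpl46* and *Mrps11*, which both fell, are each other's partner. The *Mrps11* groups overlapped, and its call was lost without S01, without S02 and without S06. Of 28 tested partners outside the family 15 fell and 4 rose (median log2 fold change -0.74), beside 29.7% and 31.7% of all genes tested. In 14 pairs both genes fell, and a link within pairs was not tested. Some partners serve the same organelle: *Ndufb5* beside *Mrpl47* and *Ndufs6* beside *Mrpl36* encode respiratory complex I subunits, *Sars2* beside *Mrps12* a tRNA synthetase and *Twnk* beside *Mrpl43* the mitochondrial DNA helicase, and all of these fell. In 4 pairs the mitochondrial ribosomal protein gene fell and its partner rose, namely *Mrpl14* beside *Tmem63b*, *Mrpl48* beside *Rab6a*, *Mrpl50* beside *Zfp189* and *Mrps18b* beside *Ppp1r10*. *Tmem63b*, a membrane channel gene, rose by 2.37 on the log2 scale, while *Mrpl14* had a log2 fold change of -0.91.

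Genes fell with and without an overlapping neighbour, where 29.7% of all genes tested fell. Of 55 genes that overlap no listed gene, 39 fell and none rose (median log2 fold change -0.71), and of 23 that do, 19 fell and 1 rose (median -0.83). The strand used in counting is not given in the sources used here, so reads of overlapping genes cannot be told apart. Only 3 overlap a listed gene on the same strand: *Mrps6*, *Mrps24* with *Urgcp* (log2 fold change 0.11, edgeR adjusted p = 0.729) and *Mrps34* with *Nme3* (log2 fold change -0.81, edgeR adjusted p = 0.122).

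The other lists of genes for mitochondrial translation had medians below 0 as well. Over all genes tested 29.7% fell and 31.7% rose. The mitoribosomal proteins with other names fell in 5 of 5 genes (median log2 fold change -0.999). *Gadd45gip1*, which sits at the exit tunnel, went from 182 ± 8.62 to 58.2 ± 15.0 CPM (SD, n = 3; log2 fold change -1.64), *Dap3*, a GTP-binding protein of the small subunit, had a log2 fold change of -1.24 and *Ptcd3*, an RNA-binding protein of the same subunit, one of -0.999. Of 27 assembly factors 13 fell, none rose and 14 did not pass (median -0.51). The falls were led by *C1qbp*, a matrix protein needed for ribosome assembly (-1.99), *Tfb1m*, which methylates the small rRNA (-1.96), and *Mtg1*, a GTPase of the large subunit (-1.39). Of 15 translation factors 8 fell, none rose and 7 did not pass (median -0.71). The falls were led by the elongation factors *Gfm1* (-1.37) and *Tsfm* (-1.26) and the insertase *Oxa1l* (-1.11). Of 11 genes for transcription and upkeep of the mitochondrial genome 6 fell, none rose and 5 did not pass (median -0.76). The falls were led by *Tefm* (-1.54), *Tfam* (-1.34) and *Polg* (-0.97).

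Of 22 tRNA synthetases and tRNA amidation subunits 13 fell, 1 rose and 8 did not pass (median log2 fold change -0.86). Of all genes tested 29.7% fell and 31.7% rose. *Aars2* and *Sars2*, the enzymes for alanine and serine, had log2 fold changes of -1.82 and -1.81. *Lars2*, the enzyme for leucine, went the other way, from 0.53%, 0.588% and 0.311% of the counts in S01 to S03 to 2.64%, 3.33% and 3.27% in S04 to S06, a log2 fold change of 2.75 (standard error 0.23, edgeR adjusted p = 1.62e-05). *Rn45s*, the listed precursor of cytosolic rRNA, rose by 0.84 on the log2 scale, from 5886, 5665 and 3588 CPM to 7162, 9871 and 10058 CPM, and S03 was the lowest mESC library for both. Whether rRNA reads entered the *Lars2* count was not tested.

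**Figure D4:**
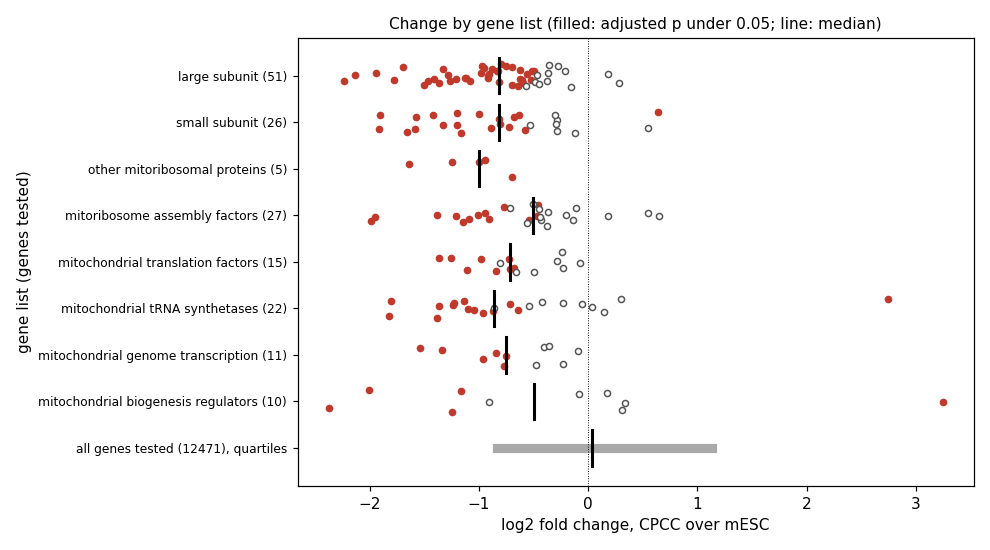
Log2 fold change, CPCC over mESC, of each tested gene (points, filled at an adjusted p under 0.05) in the 2 subunits and in 6 other lists of mitochondrial gene expression, with medians as black lines and the quartiles of all 12471 tested genes as a grey bar. The medians of all 8 lists lie below 0, between -0.999 and -0.50 (that of the biogenesis regulators moves to -0.056 with missing genes at 0 counts), and *Lars2* and *Myc* stand alone at the right.

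The regulators of mitochondrial biogenesis moved in both directions. Of 10 tested 4 fell, 1 rose and 5 did not pass (median log2 fold change -0.50), and *Ppargc1a* is listed for CPCCs only. Of all genes tested 29.7% fell and 31.7% rose, so the share that fell was not far from that of all genes. The median of these few genes was -0.80 without S04, -0.267 without S05 and -0.056 with missing genes at 0 counts. *Ppargc1b*, a coactivator of nuclear genes for mitochondria, was at 31.3 ± 2.53 CPM in mESCs and 6.04 ± 2.72 CPM in CPCCs (SD, n = 3; log2 fold change -2.38, edgeR adjusted p = 0.0003). The growth regulator *Mycn* was at 95.0 ± 46.1 and 23.7 ± 5.6 CPM (log2 fold change -2.005, edgeR adjusted p = 0.000908), and its relative *Myc* rose from 2.71 ± 1.97 to 25.7 ± 7.004 CPM (log2 fold change 3.25, edgeR adjusted p = 0.00111). Related lists were lower too. Of the cytosolic ribosomal protein genes 78 of 81 tested were lower and none higher (median -1.19), and 53 of 78 tested nuclear-encoded respiratory chain subunits were lower and 1 higher (median -0.69). The transcripts that mitochondrial ribosomes translate were looked for by symbol, but neither table lists them, so they were not analysed here.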

How the data were processed

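PolyA-selected RNA of 3 mESC and 3 CPCC cultures was sequenced (SMART-Seq v4 cDNA, paired ends). The authors deposited estimated counts (expected counts) of reads per gene, not normalized, in 1 table per cell type with GRCm38 positions. The submitters' processing notes name STAR 2.7 and mm10. The counter and strand setting are not given in the sources used here. Each table lists only genes with at least 10 counts over its libraries, and 17.9% to 21.5% of the values were not whole. Columns were matched to cell types by the name of the table and the labels, and carry no replicate numbers. Cell type and table cannot be told apart, and the labels name no batch.

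Counts were rounded. The 13001 genes in both tables went through edgeR's filterByExpr (530 removed), and the 12471 left were tested with edgeR's quasi-likelihood test (edgeR 4.0.16, R 4.3.3; TMM, Benjamini-Hochberg adjusted p under 0.05). Simulated counts with 200 genes changed by known folds, drawn with the spread of these data, were tested the same way. Of these 200, edgeR recovered 144, with 6 false calls. The biological coefficient of variation was 26.4%. For differential expression of the bulk samples the study names DESeq2, and for a heat map and its allele-specific comparisons edgeR. DESeq2 was tried here (DESeq2 1.42.0) with the other alternatives of the closing section. Coding lengths and neighbours are from GENCODE M21. The 78 members, the gene lists and the tests were chosen with earlier results of these data known. Of the list of other mitoribosomal proteins, Mrp63 and Ict1 are listed under the names of the members Mrpl57 and Mrpl58. Genes were named by rule: up to 8 rises and 8 falls of the largest size that passed the test without overlap, the 4 smallest changes, all genes of the stalk, *Mrps18*, cardiomyopathy and oxoglutarate dehydrogenase lists, the 3 highest and lowest levels per kb in mESCs, and the 3 largest changes of each other list. *Mrps21* and *Yy1*, outside this rule, and the genes with printed sequences and the neighbours were chosen after their values were seen. For members with the lowest counts, from 44 in a library, counting error can be as large as the spread between cultures.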

Additional observations from a re-analysis of the deposited data

How the results depend on the processing

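The count of 58 falls stayed within 1.5 times under each alternative run except a 2-fold threshold, which left 27. No called gene changed sign under any setting. Of the 78 genes 15 lost their call and 3 gained one (*Mrps14*, *Mrps21* and *Mrps33*, all without S04) on leaving out a library, and *Mrpl32* went from a log2 fold change of -0.32 without S04 to 0.0255 without S03. Under the other settings apart from the 2-fold threshold (DESeq2, upper-quartile normalization, library totals without TMM, library sizes over whole tables, no filter, at least 10 counts in every library, missing genes at 0 or 3 counts) 2 lost their call and 3 gained one. The count of rises, 1, became 2 with at least 10 counts in every library, 0 with a 2-fold threshold and 0 to 2 without 1 library (0 without S01, S03 or S06 and 2 without S04). The median log2 fold change ran from -0.895 to -0.696 without 1 library, that of the large subunit from -0.91 to -0.68 and that of the small subunit from -0.926 to -0.68. With a 2-fold threshold 2 other mitoribosomal proteins, 7 assembly factors, 3 translation factors, 2 genome transcription genes and 2430 of all genes were lower. Assembly factors called higher became 1 with at least 10 counts and with missing genes at 0 counts, and 0 to 1 without 1 library (1 without S06). The median of the tRNA synthetases ran from -0.9998 to -0.74 and that of the transcription genes from -0.74 to -0.61 without 1 library. Of the biogenesis regulators 0 were higher with at least 10 counts and 2 with missing genes at 0 or 3 counts, and their median was -0.84, -0.056 and -0.15 under these settings and -0.80 (without S04) to -0.267 (without S05) without 1 library. With missing genes at 0 counts the median of all genes was 0.17, against 0.03. The causes were not tested. No paired analysis was possible because the columns carry no replicate numbers.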
